A study of Mus musculus with 17 samples.

Results

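Control hematopoietic stem cells (HSCs) collected 21 days after pIpC were compared with control HSCs collected 7 days after pIpC, on 4 and 3 Affymetrix arrays. These 7 arrays, chosen by their titles as control SLAM+KSLs at either day, belong to a series of 17 arrays that also holds 3 arrays of C/EBPa knockout (KO) HSCs at day 7, 4 at day 21 and 3 of fetal liver HSCs. The labels describe the control mice as wild type and adult, and every adult group, control or KO, is dated by its day after pIpC. Adult cells were sorted as lineage-negative, Sca1-positive, cKit-positive, CD150-positive and CD48-negative. The sources used here do not give the dose of pIpC, the age of the adult mice, the sex or the Cre driver. They also do not say whether an array stands for 1 animal or a pool, so the spread behind each p-value may be technical. For the KO samples the titles name C/EBPa while the genotype field names a PU.1 knock-in. The question addressed here is which autosomal genes differed between both days in cells without the deletion.

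HSCs are the rare marrow cells that renew themselves and give rise to all blood lineages, and most of them rest outside the cell cycle. The agent pIpC is a synthetic double-stranded RNA that is sensed as viral RNA and raises type I interferon, which drives the transcription of interferon-stimulated genes and transiently brings resting HSCs into cycle. It is used to switch on an interferon-responsive Cre, so controls receive it as well. Immediate early genes such as Fos, Jun and Egr family members are transcribed within minutes of a stimulus, without new protein synthesis, and are also known to respond to the handling of cells during isolation.

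Of 16117 autosomal genes tested, 3 fell between day 7 and day 21 in control HSCs and 0 rose, at an adjusted p under 0.05 (limma, Benjamini-Hochberg over all genes tested). The 3 were 4833407H14Rik, Golga7 and H2aw, or 0.0186% of autosomal genes for the lower direction and 0.0% for the higher one. Beneath that threshold, 772 autosomal genes had an unadjusted p under 0.05 and were lower at day 21 (4.79%), and 531 were higher (3.29%). Genes whose 3 day 7 and 4 day 21 arrays did not overlap numbered 537 lower (3.33%) and 448 higher (2.78%). Over all autosomal genes 8071 differences were negative and 7775 positive, with a median of 0.00 on the log2 scale. Centring each array on its median moved this all-gene median to 0.16, so the direction of a small shared shift depends on the scaling, and the median of every list moves by the same amount with centring.

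The first property of the arrays that moved with day was sex-linked RNA. Xist, the RNA that coats the inactive X chromosome and is made in female cells, read 49, 30 and 42 on the control day 7 arrays and 6954, 5968, 6484 and 7626 on the control day 21 arrays. Y-linked Eif2s3y, a translation initiation factor gene, read 338, 518 and 426 at day 7 and lay at the floor of 16 on all 4 day 21 arrays. Kdm5d, a Y-linked histone demethylase gene, read 637, 417 and 353 at day 7 and 16, 16, 19 and 16 at day 21. No control array of one day overlapped the other day for these RNAs, so within the control arrays day and this sex-linked pattern cannot be told apart. Among KO arrays, replicate 1 of day 7 had Xist at 4893 together with Eif2s3y at 130, while the other day 7 arrays read 47 and 47 for Xist. All KO day 21 and all fetal liver arrays had high Xist and Eif2s3y at the floor. In KO cells, too, day and this pattern thus largely went together, with only replicate 1 of day 7 apart. The genes described below are autosomal, but the day difference of each of them carries this limit.

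**Figure D1:**
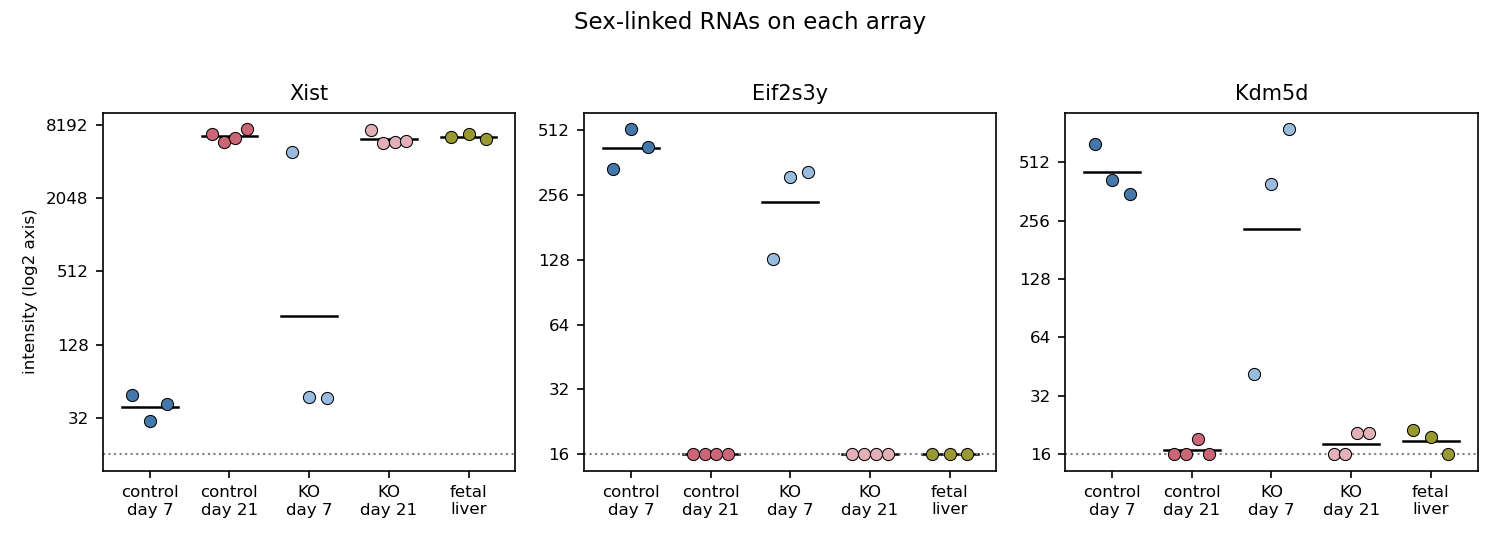
Intensity on a log2 axis of Xist, Eif2s3y and Kdm5d on all 17 arrays; each point is 1 array, bars are group means of log2 values and the dotted line is the floor of 16. Control day 7 arrays are low for Xist and high for both Y-linked genes, control day 21 arrays the reverse, and KO day 7 replicate 1 has Xist at 4893 with Eif2s3y at 130.

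Other array measures did not separate the days completely. Of the probe sets, those at the floor made up 21.7% to 23.7% at control day 7 and 22.4% to 25.2% at day 21. The log2 ratio of 3' to 5' control probe sets was 0.20 to 0.34 at day 7 and -0.05, 0.20, -0.40 and 0.13 at day 21. Only replicate 2 of day 21 thus reached the day 7 range of this ratio, at 0.1999 against a lowest day 7 value of 0.1994. This ratio therefore came close to separating the days. Replicate 3 of control day 21 stood apart, with the highest floor share, the ratio of -0.40 and the lowest mean correlation with its own group (0.834). Genes were also more variable at control day 21 than in any other group, with a median SD of 0.46 against 0.36 at control day 7 and 0.35 at KO day 21.

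The sort gate was checked through its genes. Kit, the stem cell factor receptor of the gate, read 612, 844 and 868 at day 7 and 905, 720, 586 and 581 at day 21. Slamf1, which encodes CD150, read 111, 454 and 453 at day 7 and 696, 156, 304 and 1049 at day 21. Both overlapped between days, as did the HSC genes Procr (720 to 1361 and 442 to 1148), Mecom (994 to 1941 and 340 to 1218) and Hlf (2516 to 2935 and 1712 to 2816), which encode a protein C receptor and 2 transcription factors. Cd48, whose protein is absent by the gate, read 19, 16 and 16 at day 7 and 26, 19, 658 and 95 at day 21, so replicates 3 and 4 of day 21 carried Cd48 RNA. Ly6a, the Sca1 gene, was not used here, since no probe set names it alone. Cebpa, the gene of the myeloid transcription factor C/EBPa, read 136, 141 and 315 at control day 7 and 275, 115, 115 and 532 at day 21, against 21 to 32 and 25 to 40 in KO cells. Spi1, which encodes PU.1, read 438, 219 and 280 and then 334, 364, 126 and 623 in controls. Neither gene separated the days.

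4833407H14Rik, a RIKEN transcript on chromosome 19, read 338, 251 and 633 at day 7 and 29, 34, 24 and 39 at day 21. All day 21 arrays lay below all day 7 arrays. Its mean log2 intensity was 8.56 ± 0.68 (SD, n = 3) at day 7 and 4.95 ± 0.31 (SD, n = 4) at day 21, and it fell by 3.61 on the log2 scale (SE 0.48, limma adjusted p 0.0278). In KO cells it was low at both days, 43, 37 and 64 and then 112, 57, 85 and 35, and fetal liver arrays read 142, 118 and 424.

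Golga7 on chromosome 8 encodes a Golgi protein that works with a palmitoyltransferase on Ras proteins. It read 457, 718 and 452 at day 7 and 168, 193, 195 and 281 at day 21, without overlap. The mean log2 intensity was 9.05 ± 0.38 (SD, n = 3) and 7.68 ± 0.32 (SD, n = 4), a fall by 1.37 (SE 0.19, limma adjusted p 0.0287). Of the 3 genes it had the smallest change and the brightest day 21 signal. Its SD was smaller in KO cells (0.18 at day 7, 0.098 at day 21) and fetal liver (0.12), which share the spread behind this SE. On the 7 control arrays alone its adjusted p was 0.651 by limma. KO cells moved the same way with a smaller difference of -0.45, from 499, 554 and 639 to 392, 394, 406 and 454, which did not overlap either.

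H2aw, a histone H2A gene on chromosome 11, read 316, 230 and 439 at day 7 and 19, 68, 21 and 21 at day 21. On 3 of 4 day 21 arrays it was close to the floor of 16. It fell by 3.53 (SE 0.53, limma adjusted p 0.0435), from 8.31 ± 0.46 (SD, n = 3) to 4.78 ± 0.88 (SD, n = 4). A second probe set of H2aw had a difference of -1.92 that did not pass (adjusted p 0.52 over probe sets). In KO cells it read 423, 435 and 183 and then 80, 312, 151 and 102, which overlap. Fetal liver arrays read 464, 408 and 258 for H2aw and 692, 767 and 651 for Golga7. None of the 3 calls held in every setting: they were lost on the 7 control arrays alone and when p-values were adjusted over autosomal genes only (smallest adjusted p 0.0533), and each also lost its call when control day 21 replicate 3 was left out (adjusted p 0.0746 for 4833407H14Rik, 0.0912 for Golga7 and 0.142 for H2aw).

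**Figure D2:**
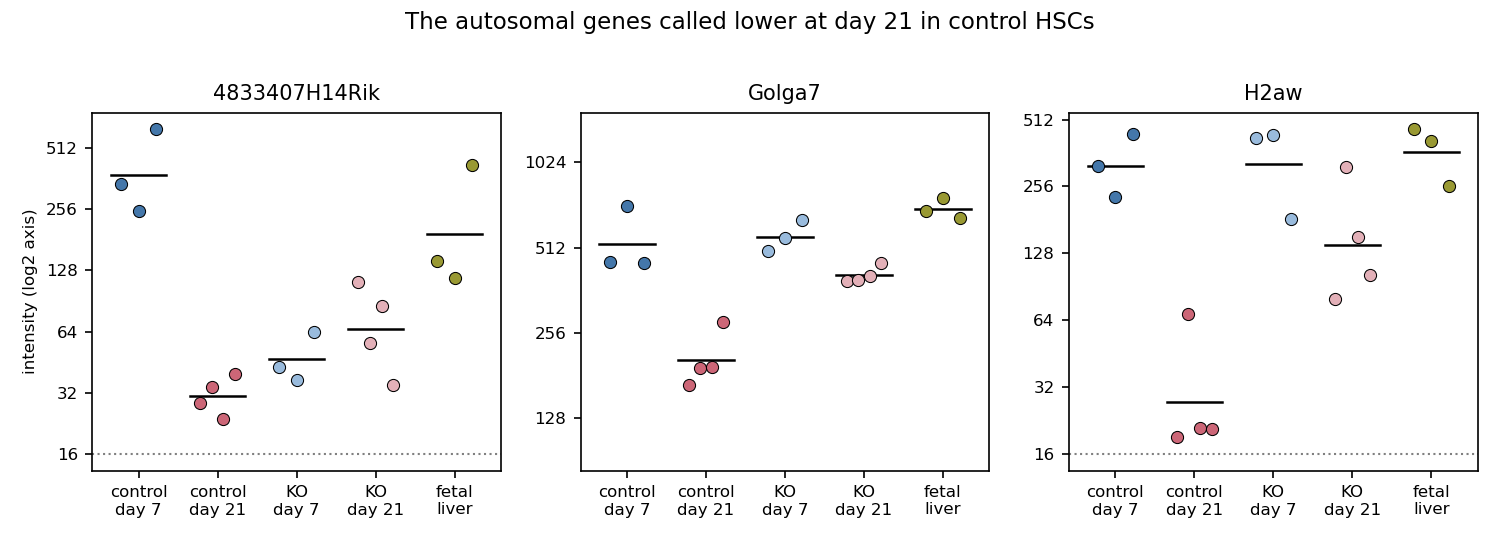
Intensity on a log2 axis of 4833407H14Rik, Golga7 and H2aw on all 17 arrays; points are arrays, bars are group means of log2 values and the dotted line, where drawn, is the floor of 16. The 4 control day 21 arrays lie below the 3 control day 7 arrays in each panel, while fetal liver arrays reach 424, 767 and 464.

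Behind these 3, the lower genes with the smallest p that did not pass the threshold were Mvb12b, Ltb, Mapk8ip3, H2-Ob, Atpsckmt, Rnf20, Tnfaip3, Zbtb22 and Hypk. Ltb, which encodes the membrane anchor lymphotoxin beta, read 243, 196 and 206 at day 7 and 59, 69, 63 and 65 at day 21, a log2 difference of -1.75 (SE 0.29, limma adjusted p 0.0871). Its groups were narrow and far apart. KO cells read 101, 71 and 89 at day 7 and 153, 60, 157 and 113 at day 21.

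Tnfaip3 encodes A20, an inhibitor of NF-kB signalling. It read 1262, 791 and 773 at day 7 and 109, 395, 178 and 256 at day 21 (log2 difference -2.12, SE 0.42, limma adjusted p 0.209). Its other probe set differed by -0.11, so the probe sets disagree. Rnf20, a ubiquitin ligase that marks histone H2B, read 1281, 2146 and 834 and then 212, 667, 357 and 328, and its 3 other probe sets differed by between -0.23 and 0.33. Mvb12b, which acts in ESCRT-I during endosomal sorting, read 794, 600 and 790 and then 197, 165, 83 and 157, with differences of 0.30, 0.08 and -1.56 on its other probe sets. Mapk8ip3, a scaffold of JNK signalling, read 583, 595 and 334 and then 62, 75, 54 and 157, with differences of 0.38 and -1.22 on its other probe sets.

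H2-Ob, the beta chain of the MHC class II regulator DO, read 192, 54 and 83 at day 7 and lay at the floor on all 4 day 21 arrays, and was at least 5.95-fold lower at day 21 (limma adjusted p 0.141). Hypk, a ribosome-associated chaperone gene, read 62, 169 and 80 and was also at the floor on all day 21 arrays, at least 5.88-fold lower (limma adjusted p 0.209). These bounds rest on the floor of 16. Among all autosomal genes, 12 were at the floor on every control day 21 array and above it on every day 7 array, and 9 showed the opposite.

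No gene passed in the higher direction, where the smallest adjusted p was 0.0926, for Atxn2. Atxn2, an RNA-binding protein of stress granules, read 469, 397 and 536 at day 7 and 1152, 1244, 1250 and 872 at day 21, a log2 difference of 1.27 (SE 0.22). Its day groups did not overlap. Its 5 other probe sets differed by between -0.998 and 0.94, so the probe sets disagree in direction.

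Pigt and Cd59a both belong to the biology of GPI anchors: Pigt is a subunit of the transamidase that attaches proteins to the anchor, and CD59 is an anchored inhibitor of complement. Pigt read 184, 214 and 302 and then 334, 760, 795 and 750. Cd59a read 59, 105 and 107 and then 158, 448, 212 and 365. Both pairs of groups were separate, with log2 differences of 1.45 and 1.64 and limma adjusted p of 0.236 and 0.377. The other probe sets of Pigt differed by -1.11 and 0.00, and that of Cd59a by 0.28. Nupr1, a stress-induced nuclear protein, read 80, 241 and 291 and then 553, 583, 693 and 1196 (log2 difference 2.02, limma adjusted p 0.377), and its other probe set differed by 1.89.

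The remaining higher genes of that rank were Krt42, Chmp2a, Ppp2r1b, Gpr108, Sez6, Immp1l, Smyd3 and Gm11517, with adjusted p from 0.161 to 0.377. Among the 12 in that direction the differences ran from 0.51 for Sez6 to 2.63 for Gpr108. Other probe sets of Sez6 and Smyd3 differed by -0.09 and -0.45, against the direction of the ones used. Chmp2a, an ESCRT-III subunit, read 167, 116 and 196 and then 886, 354, 500 and 293. In KO cells 7 of the 12 higher genes were also higher at day 21, and 5 of the 12 lower genes were also lower.

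**Figure D3:**
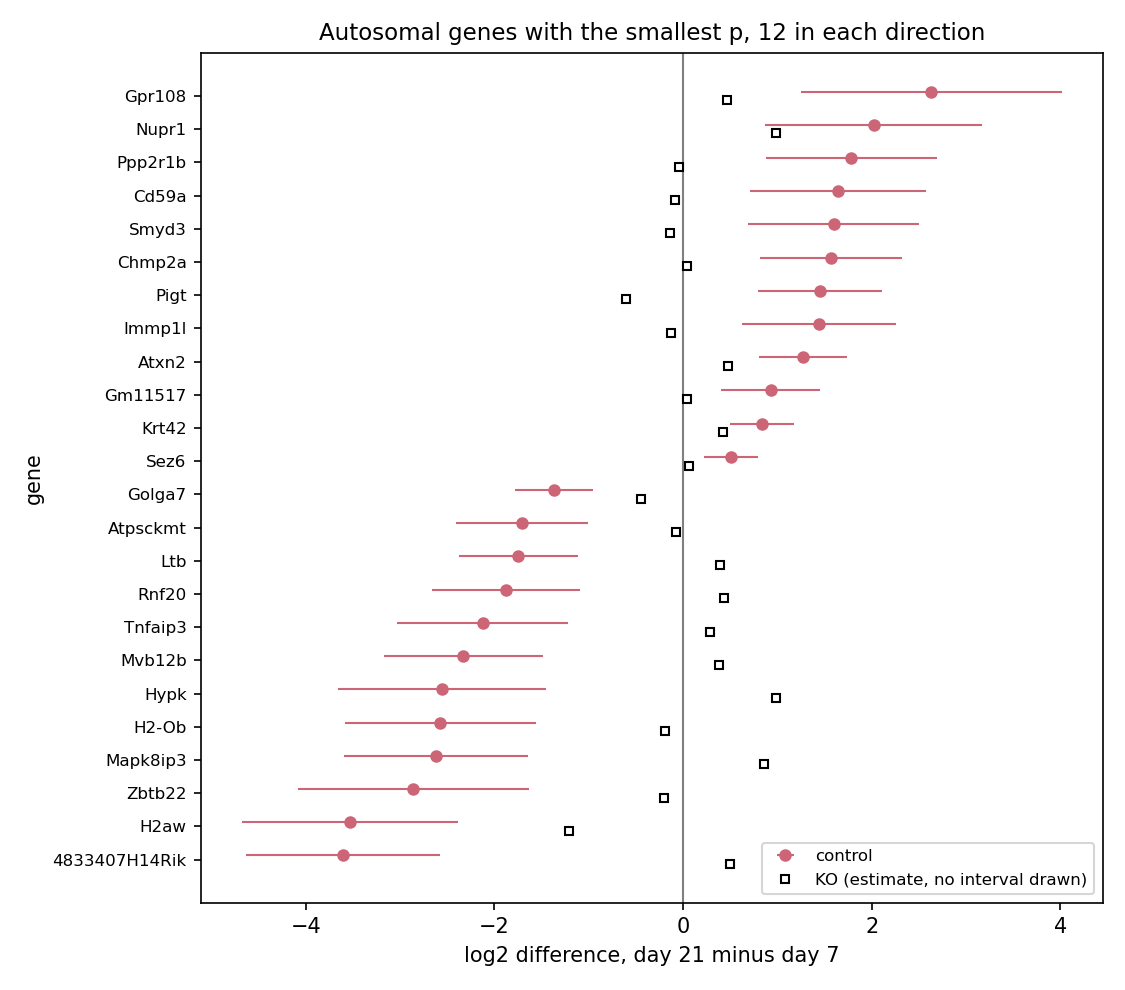
Log2 difference of day 21 minus day 7 for the 12 higher and 12 lower autosomal genes with the smallest p in controls; filled circles are control estimates with 95% confidence intervals, open squares the KO estimates without intervals. The control values were used to choose the genes, and the KO squares, from other arrays, run from -1.21 to 0.99.

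The change with time was set against that of KO cells, which share no array with the controls. The sex-linked genes moved with day in KO cells as well, with a median difference of -2.82 against -2.76 in controls. A like change in KO cells therefore does not separate day from the sex-linked pattern. In the KO cells 2 autosomal genes passed (0.0124%), Ache, the acetylcholinesterase gene, and Ufsp1, chosen for naming after their values were seen. The difference between both changes passed for 0 autosomal genes (0.0%; limma, smallest adjusted p 0.341), and 725 had an unadjusted p under 0.05 (4.5%). Across the 16117 autosomal genes the control and KO changes correlated with a Pearson r of 0.09 and a Spearman rho of 0.08, and 52.9% had the same sign. These are descriptions across genes, which are not independent replicates.

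Immediate early genes were the list with the most members whose arrays separated by day. Of 36 members tested, 29 were lower and 7 higher at day 21, 11 had an unadjusted p under 0.05 (all lower) and 0 passed the adjusted threshold. In 11 of 36 members (30.6%) every day 21 array lay below every day 7 array, against 3.33% of all autosomal genes, and in 0 every day 21 array lay above. The mean log2 intensity of the list was 10.69, 10.63 and 10.87 on the day 7 arrays and 10.17, 10.12, 10.32 and 10.39 at day 21, again without overlap. The median difference was -0.23 against 0.00 over all autosomal genes, and -0.07 against 0.16 after centring. Without control day 21 replicate 3, 12 members separated in the lower direction against 5.3% of all autosomal genes. KO cells showed another picture, with 2 members separated in the lower direction (4.05% of autosomal genes) and 8 in the higher one (3.2%), and a median of 0.10. With the 3' to 5' ratio as a covariate the control median was -0.47, and the part of RNA quality in the result was otherwise not tested.

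The promoters of 3 genes are shown: Egr2 and Dusp1 for a site through which immediate early genes are known to be induced, and Fos for its core promoter element. They are RefSeq windows of GRCm38.p6, from 250 bases before to 50 after the gene's start, and capitals mark the match. In Egr2 (chr10:67537316-67537615, plus strand) it is a CArG box, the site of serum response factor, at position -72 from the start. In Dusp1 (chr17:26508423-26508722, minus strand) it is TGACGTCA, the cAMP response element, at -143. In Fos (chr12:85473640-85473939, plus strand) it is TATAAA, the core of a TATA box, at -33.
Egr2 promoter: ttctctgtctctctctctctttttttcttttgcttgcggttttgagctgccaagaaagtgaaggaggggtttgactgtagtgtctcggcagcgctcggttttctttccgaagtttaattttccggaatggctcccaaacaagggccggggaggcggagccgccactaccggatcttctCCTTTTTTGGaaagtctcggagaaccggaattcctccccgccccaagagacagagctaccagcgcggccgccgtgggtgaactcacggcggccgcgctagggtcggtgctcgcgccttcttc
Dusp1 promoter: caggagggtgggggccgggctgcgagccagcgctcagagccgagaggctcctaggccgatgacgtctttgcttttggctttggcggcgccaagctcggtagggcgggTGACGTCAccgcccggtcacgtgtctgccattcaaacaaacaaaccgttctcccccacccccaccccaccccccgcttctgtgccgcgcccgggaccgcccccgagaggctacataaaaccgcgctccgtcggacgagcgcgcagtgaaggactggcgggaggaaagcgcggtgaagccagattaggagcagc
Fos promoter: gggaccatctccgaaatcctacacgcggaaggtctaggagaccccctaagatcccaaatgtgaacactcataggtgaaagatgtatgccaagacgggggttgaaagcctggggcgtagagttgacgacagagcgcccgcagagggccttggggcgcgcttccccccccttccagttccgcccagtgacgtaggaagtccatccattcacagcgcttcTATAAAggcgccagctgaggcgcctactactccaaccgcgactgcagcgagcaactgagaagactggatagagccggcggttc
Promoter windows were at hand for 29 of the 36 members and for 12830 autosomal genes tested. On either strand a CArG box was found in 2 of the 29 (6.90%) and in 1.60% of all genes, and TGACGTCA in 3 (10.3%) and 3.11%. TATAAA was found in 8 (27.6%) and 10.6%, and an NF-kB site in 7 (24.1%) and 12.1%. Some windows hold more than 1 of these motifs. Among the 10 separated members with a window, each of the first 3 motifs was found in 1, the gene shown for it, and an NF-kB site in 3. The 3 promoters shown are therefore not typical of the separated members. A match describes the letters and not occupancy.

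Egr2, a zinc finger transcription factor, had the largest difference in the list. It read 327, 226 and 896 at day 7 and 31, 17, 38 and 49 at day 21, a log2 difference of -3.70 (SE 0.75, limma adjusted p 0.209). All day 21 arrays were below 50 and all day 7 arrays above 200, and a second probe set differed by -2.21. KO cells were higher at day 21, with 205, 61 and 89 and then 388, 184, 336 and 113, though the groups overlap. Its paralogs did not follow it: Egr1 and Egr3 differed by -0.15 and 0.33.

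Fos and Fosb encode partners of Jun in the AP-1 transcription factor. Fos read 5728, 5791 and 7507 at day 7 and 2194, 2556, 3056 and 5323 at day 21 (log2 difference -1.03, SE 0.27, limma adjusted p 0.377). Replicate 4 of day 21 came closest to day 7. KO cells gave a like order, from 6094, 4894 and 5595 to 3407, 2414, 4260 and 4385, without overlap. Fosb read 5436, 5285 and 5724 and then 2011, 2547, 3283 and 5262 in controls, with replicate 4 just below the lowest day 7 array. Jun differed by -0.32 and Jund by -0.44, small differences between groups that still did not overlap, and Junb by -0.18 with overlap.

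Klf2, Klf4 and Klf6 are Kruppel-like transcription factors, of which Klf2 and Klf4 are linked to quiescence. Klf6 read 5580, 7083 and 8189 at day 7 and 2601, 3912, 4030 and 4917 at day 21 (log2 difference -0.87, SE 0.25, limma adjusted p 0.39), and its 4 other probe sets differed by between -1.69 and -0.69. Klf4 read 3577, 4174 and 4785 and then 1487, 2050, 2111 and 3270. Klf2 read 839, 1229 and 2141 and then 190, 290, 236 and 953. Only Klf2 of the 3 overlapped between days, through replicate 4 of day 21, and its adjusted p was 0.456 by limma.

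Rhob encodes a small GTPase induced by stress, and Dusp1 a phosphatase that switches off MAP kinases. Rhob read 4058, 4973 and 5350 at day 7 and 2144, 1919, 2630 and 825 at day 21 (log2 difference -1.46, SE 0.40, limma adjusted p 0.378). Dusp1 read 4422, 4912 and 5927 and then 2136, 2255, 2646 and 4123 (log2 difference -0.91, SE 0.26, limma adjusted p 0.39). In KO cells Dusp1 also separated, from 6645, 5083 and 5621 to 3150, 2553, 3978 and 3361. Ier2 and Ier5, immediate early regulators, separated in controls with differences of -1.02 and -1.13, whereas in KO cells Ier5 was higher on every day 21 array (difference 0.50). Nr4a3, a nuclear receptor gene, differed by -0.61 in controls and 0.98 in KO cells. Its control days overlapped, and its other probe sets differed by 0.84 and -0.44 in controls. The 7 higher members ran from Csrnp1 at 0.03 to Gadd45g at 0.65. The genes of this list other than Egr2 and Fos were chosen for naming after their values were seen.

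**Figure D4:**
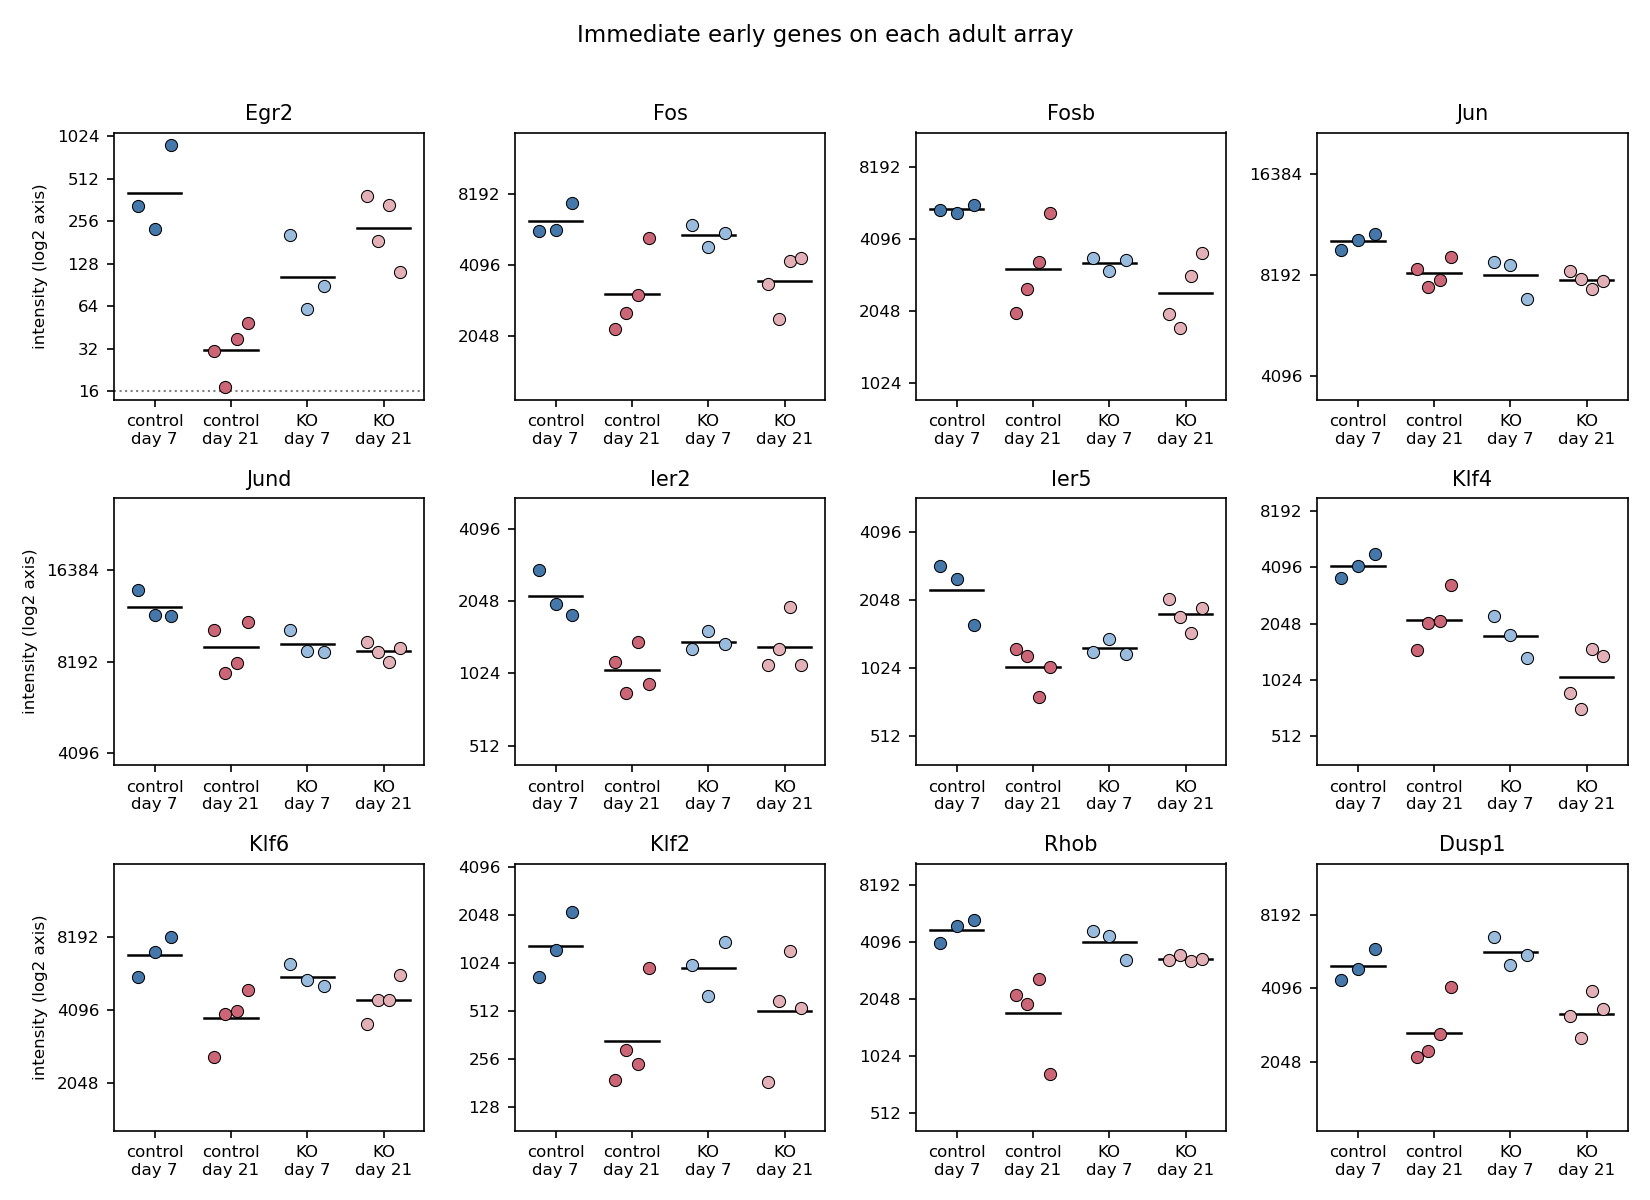
Intensity on a log2 axis of 12 immediate early genes on the 14 adult arrays; each point is 1 array, bars are group means of log2 values, axes differ between panels, and the dotted line in the Egr2 panel is the floor of 16. In every panel except Klf2 the control day 21 arrays lie below the control day 7 arrays, while in KO cells Fos and Dusp1 separate in that direction and Ier5 in the other. The panels were chosen after the values were seen, so this separation follows from the choice. In the whole list 11 of 36 members separated in the lower direction, and 7 members were higher at day 21.

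MAP kinase feedback genes, which include Dusp1, had 15 of 21 members lower and a median of -0.39 (-0.22 after centring), with 3 of 21 members separated in the lower direction, against 3.33% of all autosomal genes. Dusp6, a phosphatase specific for ERK, read 1612, 965 and 1313 and then 678, 755, 402 and 633 (log2 difference -1.08, limma adjusted p 0.534), and in KO cells differed by -2.10 without overlap. Spry1, a Sprouty inhibitor of growth factor signals, read 457, 747 and 681 and then 177, 527, 88 and 261, which overlap. Leaving out 1 control array at a time moved this median between -0.46 and -0.08.

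Interferon-stimulated genes, the direct targets of the pIpC response, had 33 of 48 members lower and 15 higher at day 21, and 0 passed (limma; 2 lower members had an unadjusted p under 0.05, where all autosomal genes give 4.79% lower). The median was -0.31, or -0.15 against 0.16 for all genes after centring, and 0 members separated between days, where all autosomal genes give 3.33% lower and 2.78% higher. Their mean log2 intensity was 7.52, 7.90 and 8.14 at day 7 and 7.30, 7.85, 7.43 and 7.74 at day 21, so the groups overlap. The members with the smallest p were Parp9 and Parp14, ADP-ribosyltransferases of the interferon response. Parp9 read 200, 91 and 381 and then 96, 108, 52 and 30, and Parp14 594, 268 and 177 and then 231, 142, 211 and 121. Members ran from Parp9 at -1.59 to the antiviral gene Ifit2 at 1.02. With the 3' to 5' ratio as a covariate the list median was 0.05, and leaving out 1 control array at a time moved it between -0.42 and -0.08. In KO cells it was 0.06.

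Sensors and receptors upstream had a median of -0.29 (-0.12 after centring), with 11 of 18 members lower and 1 separated in the lower direction, near the 3.33% of all autosomal genes. Sting1, an adaptor of cytosolic DNA sensing, read 150, 424 and 447 and then 17, 510, 82 and 49. Ticam1, the adaptor through which Tlr3 signals double-stranded RNA, read 225, 125 and 218 and then 70, 58, 69 and 195. Both overlapped between days. MHC class I and peptide loading genes had a median of -0.02 and changed sign after centring (0.15). Psmb8, a subunit of the immunoproteasome, read 2728, 1057 and 1769 and then 1099, 772, 845 and 605 (limma adjusted p 0.405).

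Nuclear genes of the respiratory chain leaned the other way. Of 42 members 29 were higher and 13 lower at day 21, 6 higher members had an unadjusted p under 0.05, 0 passed, and the median was 0.19 (0.36 after centring, against 0.16 for all genes). In 5 members every day 21 array exceeded every day 7 array, against 2.78% of all autosomal genes, and in 0 the reverse. Those were Ndufb5 of complex I, Uqcrfs1, the Rieske protein of complex III, Cox5b of complex IV, and Atp5o and Atp5c1 of ATP synthase. Ndufb5 read 756, 865 and 1211 and then 1267, 1339, 2082 and 1818 (log2 difference 0.78, SE 0.23, limma adjusted p 0.405). Atp5o read 589, 852 and 930 and then 1324, 1856, 1221 and 1148 (0.81, SE 0.28, limma adjusted p 0.502). Against this, Ndufs8 of complex I differed by -1.19. Its other probe sets differed by between -1.37 and 0.33, and those of Cox5b by between -0.88 and 0.43. The list means overlapped between days (9.78 to 10.20 and 10.02 to 10.29), and the KO median was -0.19.

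Proteasome genes had a median of 0.16 in controls (0.32 after centring), with 19 of 32 higher and 1 separated in the higher direction, near the 2.78% of all autosomal genes. That member, Psmc6, an ATPase of the proteasome cap, read 389, 373 and 509 and then 544, 1076, 582 and 740, and its other probe sets differed by 0.53 and -0.66. Glycolysis and hypoxia genes had a median of -0.35 (-0.19 after centring). Adm, a hypoxia-induced vasodilator peptide gene, read 1885, 757 and 1964 and then 54, 682, 71 and 59, with a wide SE of 1.27 around its difference of -3.66, and its other probe set differed by -0.10. Aldoa, the glycolytic aldolase, read 2251, 1880 and 1976 and then 1754, 1224, 1623 and 1337, and its 4 other probe sets differed by between -0.39 and 0.22. Lysosome and autophagy genes had a median of -0.32 (-0.16 after centring), and 3 of 25 members separated in the lower direction, against 3.33% of all autosomal genes. Sqstm1, the autophagy receptor p62, read 1308, 1361 and 1459 and then 683, 907, 288 and 751 (log2 difference -1.18, SE 0.32, limma adjusted p 0.378).

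Cell cycle genes showed no common direction. G2 and mitosis genes had 31 higher and 26 lower members and a median of 0.06 (0.22 after centring), and DNA replication and G1/S genes 21 of each and a median of 0.02 (0.18 after centring), where KO medians were -0.34 and -0.30. Ncapd2, a condensin subunit, was the one mitotic member higher without overlap, at 90, 259 and 259 and then 774, 505, 367 and 286, though its other probe set differed by 0.03. Gins4, of the replicative helicase, read 706, 563 and 597 and then 148, 242, 227 and 150 (log2 difference -1.73, SE 0.37, limma adjusted p 0.236). Among quiescence genes and CDK inhibitors 17 of 26 were lower with a median of -0.15, which turned to 0.01 after centring. Btg1, an antiproliferative gene, read 1783, 1647 and 2149 and then 1400, 1576, 917 and 1196, with -0.97 and 0.10 on its other probe sets. Cdkn1a, the inhibitor p21 that p53 induces, read 2186, 1969 and 1902 and then 1209, 1007, 1483 and 1523 (log2 difference -0.65, limma adjusted p 0.649), and in KO cells was higher on every day 21 array (difference 1.13).

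HSC identity genes had a median of -0.16, which was 0.01 after centring, with 24 of 37 lower. Erg, an ETS factor needed by HSCs, read 2178, 1998 and 1684 and then 1575, 1190, 1140 and 1266 (log2 difference -0.60, SE 0.17, limma adjusted p 0.39), and was also lower without overlap in KO cells (-0.52). Mecom differed by -1.16 with overlap, and its other probe sets by 0.47 and -0.09. Fgd5, a guanine exchange factor that marks HSCs, went the other way, with 150, 269 and 379 and then 675, 466, 601 and 1220.

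Markers of other cell types had medians from -0.07 for macrophage genes to 0.12 for megakaryocyte genes, or 0.09 and 0.28 after centring, against 0.00 and 0.16 for all autosomal genes. In bulk samples fewer cells of a type and less RNA per cell cannot be told apart. The erythroid list had its highest mean on day 21 replicate 3 (7.93, against 6.75 to 7.47 on the other day 21 arrays and 6.87 to 7.11 at day 7), the array that also read 658 for Cd48. Klf1, the erythroid master factor, read 29, 39 and 70 and then 114, 67, 751 and 327. Tfr2, another erythroid member, went the other way with a difference of -0.85 and no overlap. Of the list 12 members were higher and 9 lower at day 21. Gp9, a platelet glycoprotein gene, read 164, 104 and 146 and then 7224, 265, 236 and 414. Its days did not overlap, but the size of its mean difference leaned on replicate 1 of day 21. Among genes that define plasma, NK and macrophage cells, Jchain, Ncr1 and Cd163 peaked at 26, 21 and 52 on a control array and were at the floor on most. Other members of the same lists, Sdc1, Cd3d and Timd4, were above the floor on every control array. They read 58 to 100, 29 to 48 and 17 to 30. The part of other cells in the results above was not tested.

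**Figure D5:**
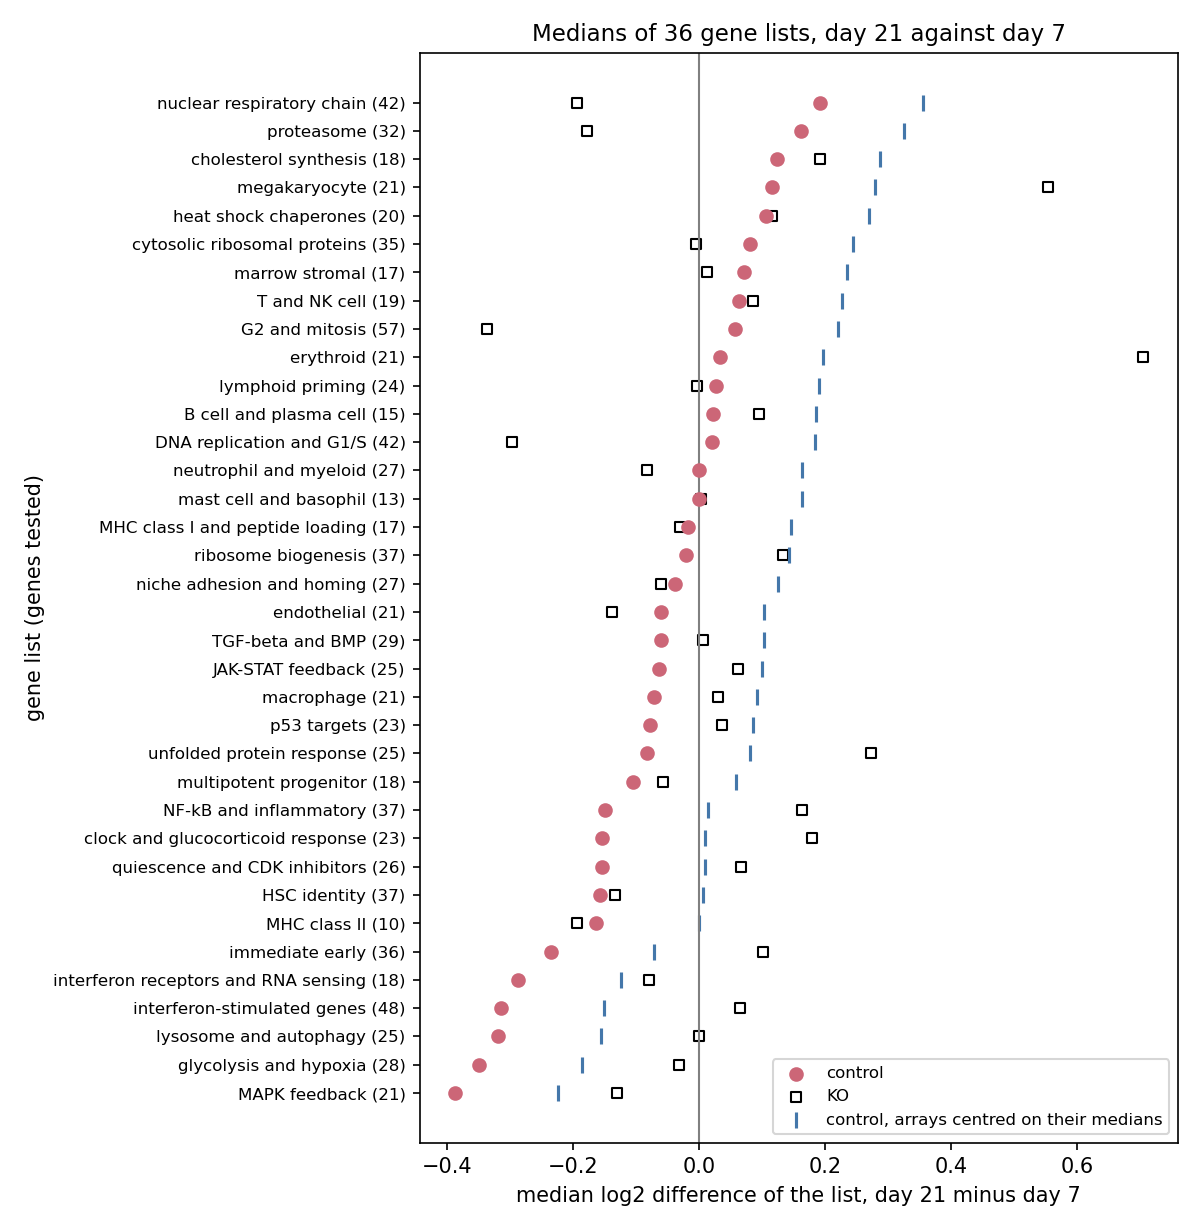
Median log2 difference of day 21 minus day 7 over 36 gene lists, with the number of genes tested in brackets; filled circles are controls, blue bars controls after centring each array on its median, open squares KO cells. Control medians run from -0.39 for MAPK feedback to 0.19 for the nuclear respiratory chain, and centring adds 0.16 to each.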

How the data were processed

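RNA of sorted mouse HSCs was measured on 17 Affymetrix arrays in 5 groups, taken from the sample titles. For 45101 probe sets the authors deposited intensities, on a linear scale as judged from the values; RMA is the tool the submitters' processing notes name, and the scaling and the floor of 16 are not explained in the sources used here. The values were taken to log2 with no pseudocount. A probe set named 1 gene for 34958 probe sets, several for 932 and none for 9160; 34754 matched RefSeq GRCm38.p6 identifiers, used for names and chromosomes. The probe set with the highest mean stood for each of 18194 genes, and 16785 genes above the floor on at least 1 array were tested, 16117 of them autosomal.

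limma 3.58.1 in R 4.3.3 fitted 1 mean per group to all 17 arrays (lmFit and eBayes, residual df 12, prior df 1.5), so 5 groups share a spread, with Benjamini-Hochberg adjustment over all genes. The fit was tested on simulated data: of genes changed between control days, 4.3% were recovered at 2-fold, 37.7% at 4-fold, 70.9% at 8-fold and 89.7% at 16-fold, over 16785 genes, with up to 7.82% of calls false. The changed genes were drawn only from genes brighter than the median gene, with 1 spread per gene pooled over all groups and no floor. Real spread was larger at control day 21 (median SD 0.46), so the recovered shares may be too high for this comparison. For the same reason the SEs and p-values of the control comparison may be too small. No 2 arrays held identical values. Arrays give no count depth, and their number limits precision.

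The members and gene lists were chosen with earlier results of these data known. Named genes were the 12 with the smallest p in each direction among autosomal genes with separate day groups and a higher-group mean above that of the median gene, the 2 members with the smallest p in each of 36 lists, and sort gate checks. Lists were described by counts and medians. Figures and tables used Python 3.11.15.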

Additional observations from a re-analysis of the deposited data

Results flagged for a closer look

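Within the 4 control day 21 arrays, a gap of 1 array from the others beyond Dixon's 95% critical value for 4 samples was found for 14 of 138 measures. Chance gives about 5% where values vary freely, a rate that does not hold for chosen measures or at the floor: for Satb1 and Jchain the 3 other arrays all lay at 16, which fixes the ratio. Day 7, with 3 arrays, cannot be examined this way. Replicate 1 was low for Pigt (334, the others 750 to 795) and high for Polk, a DNA polymerase (289 against 21.4 to 30.2), and Gp9 (7224 against 236 to 414). Its mean log2 intensity was low for the DNA replication and G1/S list (7.68 against 8.26 to 8.35) and the G2 and mitosis list (6.91 against 7.39 to 7.47). Replicate 2 was high for H2aw (68.2 against 19.1 to 21.0), the chromatin organizer Satb1 (88.2 against 16 on the others), Jchain (26.4 against 16), Adm (682 against 53.7 to 71.0) and the proteasome gene Psma1 (664 against 367 to 398). Replicate 3 was low for Procr (442 against 1022 to 1148) and for the mean of the TGF-beta and BMP list (7.53, the others up to 8.27). Replicate 4 was high for Ticam1 (195 against 58.2 to 70.1) and for the T and NK cell list (5.63 against 5.53 to 5.54).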

How the results depend on the processing

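The control comparison called 3 autosomal genes. The count was 0 with the 3' to 5' ratio, or the floor share, as a covariate, with array weights, without moderation, with p-values adjusted over autosomal genes only and on the 7 control arrays alone; it was 1 after median centring, 9 when every probe set was tested on its own and 30 with Xist as a covariate. Within groups Xist differed most at KO day 7, where only replicate 1 was high. The Xist fit therefore leans on that array and cannot separate day from the sex-linked pattern in controls. In the fits giving 0 the limma counts at an unadjusted p under 0.05 ran from 836 to 1303. Leaving out 1 array at a time gave 0 to 9; the KO and fetal liver arrays were added to this after seeing the data. Over 18 other settings 4833407H14Rik kept its call in 9, Golga7 in 7 and H2aw in 3, and over 17 arrays left out in 12, 8 and 4; none of the 3 was called without control day 7 replicate 2, control day 21 replicate 3 or KO day 21 replicate 3. The difference between control and KO changes, 0 genes, was 1 with Xist as a covariate and 0 to 2 with 1 array left out.

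The titles give replicate numbers without saying whether they pair the control arrays. Deviations of arrays with the same number correlated at 0.01, 0.05 and -0.03, and of arrays with different numbers at -0.08 to 0.06. With so few arrays these values cannot settle whether a pairing exists. With the replicate block the control count was 3 on all arrays, where H2aw lost its call (adjusted p 0.11) and Mapk8ip3 gained one (adjusted p 0.0455), 0 on the 7 control arrays and 0 with the 3' to 5' ratio added.

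Of 92 named genes, 8 changed sign in at least 1 setting, none of them called: with Xist as a covariate Ncapg (0.41), Flt3 (0.27), Sdc1 (-0.030) and Aldoa (0.061); with the mean of all probe sets Sdc1 (-0.45) and Cd44 (-0.16); with the replicate block and the 3' to 5' ratio Sox18 (0.21) and Cxcl12 (0.071); and with 1 array left out Emcn (-0.016 to 1.69, the negative value without control day 7 replicate 3) and Cd44 (-0.017 to 0.84, the negative value without control day 7 replicate 1). Of 864 list medians 71 moved by more than the replicate SD of the list mean. The immediate early median ran from -0.31 to -0.23 with 1 control array left out, and was -0.77 with Xist as a covariate. All values with Xist as a covariate carry the limit given above. The cause of these changes was not tested.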
